A study of Mus musculus with 20 samples.

Results

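The experiment described here is the response of mouse bone marrow-derived macrophages to DSHN given alone, read across all genes. Its members are the 5 libraries titled DSHN and the 5 titled DMSO, 10 of the 20 libraries in the series, chosen by their titles and not by any measured value. Marrow came from female C57BL/6 mice and was cultured with murine recombinant M-CSF at 20 ng per mL (the labels spell the factor M-DSF), the growth factor that drives marrow progenitors to become macrophages. The mature cells were replated at 700k per well in 6-well plates and kept for 24 h with the solvent DMSO or with DSHN at 50 µM. The other 10 libraries, used here only where stated, came from cells given GW3965 at 1 µM or both compounds. No genotype other than the strain is labelled, and the age of the mice is not given in the sources used here. The labels call the 5 libraries of a group biological replicates without saying whether each came from its own mouse, so the p-values measure the spread between these cultures.

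DSHN is labelled an agonist of NR0B2 (small heterodimer partner), an orphan nuclear receptor that lacks a DNA-binding domain and represses other nuclear receptors by binding to them. GW3965 is an agonist of the liver X receptors, which sense oxysterols and switch on cholesterol export in macrophages. Cultured macrophages are phagocytes: they carry Fc, complement and scavenger receptors, digest cargo in lysosomes, recycle iron, and answer danger signals through MAP kinases, AP-1 and NF-kappaB with chemokines and cytokines.

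The 10 libraries held between 18023716 and 23796561 counts assigned to genes. The labelled cell type was checked on its markers. CPM are counts scaled to the library size as adjusted by TMM, the scaling also used for the tests. Summed over 12 macrophage marker genes, the level ran from 17707 to 19222 CPM in DMSO and from 20053 to 21723 CPM in DSHN. Of the 12, 7 were higher and 3 (Cd14, Fcgr1 and Itgam) lower. Fibroblast and stromal genes were present as well, with Col1a1, a collagen chain, at 1456, 1327, 1413, 1314 and 1127 CPM in DMSO 1 to 5 and 1206, 1388, 1307, 1563 and 1449 CPM in DSHN 1 to 5. The 12 stromal markers summed to 3163 to 3898 CPM in DMSO and 3281 to 4096 CPM in DSHN, and 1 of the 10 tested, Cxcl12, was called. Elane and Retnlg of neutrophils, Pax5 of B cells and Cpa3 and Tpsb2 of mast cells had no counts. The B cell markers summed to 129.8 to 151 CPM in DMSO and 165.5 to 181.2 CPM in DSHN, mostly from Blnk, with Ebf1, Cd22 and Cd79b also detected, and their part in the results was not tested. The message of the labelled target, Nr0b2, had 5, 4, 8, 3 and 3 counts in DMSO 1 to 5 and 2, 2, 0, 1 and 3 in DSHN 1 to 5, too few to test. In bulk RNA a smaller number of cells of a type and less RNA per cell cannot be told apart. The first principal component of the 10 libraries held 34.49% of the variance and separated DSHN from DMSO. The second, with 15.27%, set DSHN 1 to 3 apart from 4 and 5 and DMSO 1 and 2 apart from 3 to 5.

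Among 13307 genes with enough counts to test, 3852 differed between DSHN and DMSO at an adjusted p below 0.05, which is 28.9% of the genes tested. Of these, 1880 were higher with DSHN (14.1% of the genes tested) and 1972 lower (14.8%). With libraries scaled by total counts alone the numbers were 1579 and 2246. Most differences were small: the median absolute log2 fold change of the called genes was 0.24, and 3440 of them (89.3%) moved less than 1.5-fold. The 5 DSHN libraries lay wholly above or wholly below the 5 DMSO libraries in 2339 of the called genes (60.72%), against 18.6% of all genes tested. More than a 2-fold change was seen in 36 genes that rose (0.271% of the genes tested) and 47 that fell (0.353%).

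The largest rises and falls were listed only among called genes of at least 5 CPM with a full symbol and no overlap of DSHN and DMSO libraries. Lack of overlap was therefore a condition of the list and not a finding. The largest rises by this rule were in genes of varied function. Ednrb, the endothelin B receptor, a G protein-coupled receptor (chromosome 14, 104052051 to 104083248 on GRCm39, the build of all positions of genes given here), led them. Ednrb read 23.7, 27.7, 24.9, 20.6 and 17.6 CPM in DMSO 1 to 5 and 59.95, 64.4, 72.1, 80.5 and 75.5 CPM in DSHN 1 to 5. The ranges lay far apart, at a log2 fold change of 1.61 (SE 0.12, n = 5 and 5, adjusted p = 1.34e-10 by edgeR's quasi-likelihood test). Ptx3, a secreted pattern recognition protein that binds microbes and complement, read 8.69, 8.52, 8.19, 7.51 and 6.11 CPM in DMSO and 13.98, 14.6, 17.3, 17.9 and 13.2 CPM in DSHN, with no overlap and a log2 fold change of 0.97. Selenop, the plasma selenium carrier, was abundant and rose by 0.91 on the log2 scale, from 1224, 1412, 1320, 1097 and 1027 CPM to 2045, 2199, 2484, 2402 and 2260 CPM. Here too every DSHN library was above every DMSO library. Rspo2, a secreted enhancer of Wnt signalling, rose by 0.97 (10.4, 10.7, 10.8, 8.24 and 6.38 CPM against 14.7, 14.7, 20.3, 23.3 and 19.2 CPM), with DMSO 4 and 5 the lowest and DSHN 3 to 5 the highest. Nat8l, which makes N-acetylaspartate, rose by 1.19 from 2.40 to 3.88 CPM over the DMSO libraries to 6.68 to 8.42 CPM over the DSHN libraries. Mmp8 (neutrophil collagenase) and Mmp27, both matrix metalloproteinases, rose by 1.02 and 0.93. Mmp8 made up nearly all of the neutrophil markers, which summed to 25.9 to 32.5 CPM in DMSO and 54.7 to 63.4 CPM in DSHN, while the other 11 of the 12 had means below 1 CPM.

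**Figure D1:**
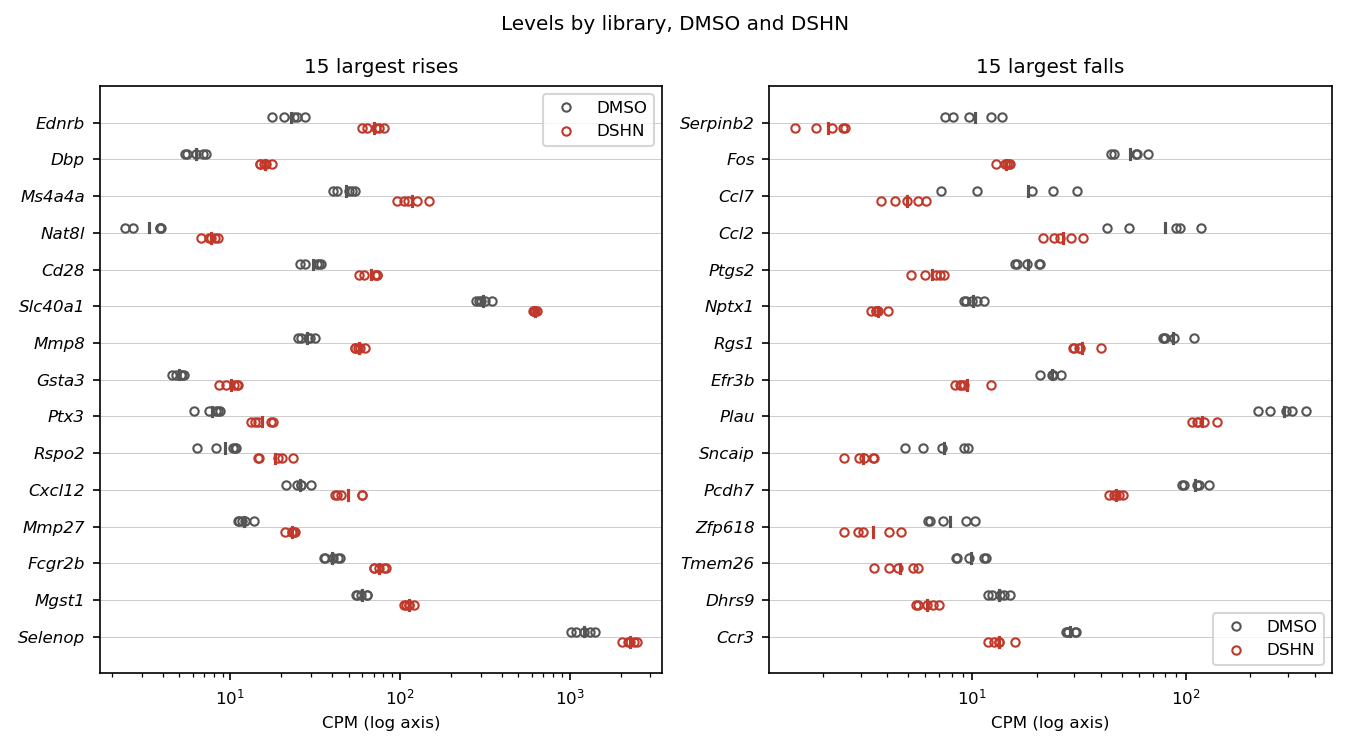
CPM on a log axis for the 15 largest rises and the 15 largest falls with DSHN by the naming rule, 1 row per gene and 1 point per library, DMSO and DSHN in different colours. In every row the 5 DSHN points lie wholly on one side of the 5 DMSO points, which the naming rule required.

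The largest falls by the same rule were varied as well. Serpinb2, plasminogen activator inhibitor 2 (chromosome 1, 107439153 to 107453330), fell furthest among named genes at 5 CPM or more without overlap, from 9.64, 8.14, 7.46, 12.2 and 13.8 CPM in DMSO 1 to 5 to 2.49, 2.21, 1.48, 1.85 and 2.55 CPM in DSHN 1 to 5. Rgs1, which shuts off G protein signalling downstream of chemokine receptors, read 78.1, 78.4, 79.9, 88.2 and 109 CPM in DMSO and 39.9, 30.1, 31.6, 29.7 and 31.9 CPM in DSHN. DSHN 1 was higher than the other DSHN libraries, all 5 were below all DMSO libraries, and the log2 fold change was -1.40. Tmem26, a transmembrane protein, read 11.6, 8.43, 8.47, 9.65 and 11.3 CPM in DMSO and 4.48, 3.47, 4.08, 5.54 and 5.29 CPM in DSHN (log2 fold change -1.12). Further falls of more than 2-fold on this list were Pcdh7, a protocadherin (-1.22), Efr3b, an adaptor at the plasma membrane (-1.31), Sncaip, which binds synuclein (-1.23), and Dhrs9, a retinol dehydrogenase (-1.11).

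Most immediate early genes fell. Of 23 tested genes on the list of AP-1 and other immediate early genes, 16 fell and 0 rose, with a median log2 fold change of -0.45, against 14.8% lower and a median of 0.0018 over all 13307 genes. Fos, the AP-1 subunit that pairs with Jun proteins (chromosome 12, 85520664 to 85524048), read 58.9, 44.7, 46.1, 58.5 and 66.3 CPM in DMSO 1 to 5 and 14.9, 14.2, 12.96, 14.6 and 15.1 CPM in DSHN 1 to 5. The DSHN libraries were tightly grouped at about the same level and none approached the lowest DMSO library, with a log2 fold change of -1.94 (SE 0.097, n = 5 and 5, adjusted p = 8.756e-14 by edgeR's quasi-likelihood test). Other AP-1 genes had smaller changes: Junb fell by 0.45, Fosl2, a relative of Fos, by 0.25 and Jun by 0.17 on the log2 scale, while Jund was at 0.048 and was not called. All 3 tested Egr zinc finger factors were lower. Egr2 read 25.3, 26.6, 27.6, 23.5 and 23.2 CPM in DMSO and 13.6, 12.5, 13, 14.3 and 15.7 CPM in DSHN, with no overlap, whereas the Egr1 libraries overlapped at a log2 fold change of -0.62. Myc, the growth-promoting factor, read 44.9, 31.8, 33.3, 38.3 and 45.5 CPM in DMSO and 23.1, 21.4, 18.3, 20.7 and 25.2 CPM in DSHN, again without overlap (log2 fold change -0.83). Zfp36 (tristetraprolin), which binds AU-rich elements and promotes decay of cytokine messages, fell by 0.68, from between 88.4 and 103.8 CPM to between 55.7 and 63.5 CPM. Among the nuclear orphan receptors induced early, Nr4a1 fell by 0.89, and Nr4a2, at a DMSO mean of 2.25 CPM, was at -0.13 and not called.

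Most feedback inhibitors of MAP kinase signalling fell too. Of 16 tested members, 11 fell and 0 rose, at a median of -0.34. They covered the dual-specificity phosphatases, which dephosphorylate MAP kinases (6 of 9 fell), and the Sprouty and Spred proteins, which restrain signalling from Ras to ERK (4 of 6 fell). Dusp1 read 49.3, 43.5, 39.4, 48.2 and 53.1 CPM in DMSO and 27.6, 28.4, 24.5, 28.3 and 30.7 CPM in DSHN. No library crossed over, and the log2 fold change was -0.74 (SE 0.070). Dusp6, a phosphatase of ERK, read 139, 127, 129.5, 128 and 140.2 CPM against 107, 101, 99.4, 103 and 114 CPM, a smaller shift of -0.34. Spred1, the most abundant of the 16, fell by 0.38, Spry4 by 0.77 and Errfi1, an inhibitor of the EGF receptor, by 0.32. The counts lower over the 20 other settings tried were 15 to 16 for the immediate early list and 10 to 12 for the feedback list. The AP-1 site TGACTCA or TGAGTCA was found in 0 of the 18 promoter windows available for genes of the immediate early list, and in 4.69% of the windows of all tested genes.

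Among clock genes more rose than fell. The clock is a loop in which Clock and Arntl (BMAL1) activate Per, Cry and REV-ERB genes through E-boxes, and in which Dbp, Tef and Hlf act on D-boxes. Of 17 tested members 7 rose and 1 fell, at a median of 0.16. Dbp (chromosome 7, 45354518 to 45359627) read 6.26, 7.15, 6.91, 5.53 and 5.40 CPM in DMSO and 15.02, 15.8, 17.6, 16.2 and 14.97 CPM in DSHN. Every DSHN library was far above the highest DMSO library, and the log2 fold change was 1.34 (SE 0.11, n = 5 and 5, adjusted p = 1.163e-09 by edgeR's quasi-likelihood test). Tef read 56.4, 60.6, 58.4, 53 and 48.3 CPM against 69.8, 74.8, 74.9, 74.8 and 72.2 CPM, without overlap, and rose by 0.40. Per3 read 6.98, 8.10, 6.54, 5.74 and 6.27 CPM in DMSO and 10.95, 11.2, 11.3, 11.9 and 11.7 CPM in DSHN, a rise of 0.76. Nr1d2 (REV-ERB beta), a haem-binding repressor of the loop, read 68.9, 70.8, 69.5, 62.3 and 61.01 CPM against 94.3, 99.8, 111, 103 and 99.5 CPM (log2 fold change 0.61), with its relatives Nr1d1 at 0.47 and Rora at 0.41. The Rora libraries overlapped. The paired repressors DEC1 and DEC2 went in opposite directions: Bhlhe41 (DEC2) read 70.5, 62.9, 70.7, 67.1 and 64.8 CPM against 91.3, 89.4, 85.5, 86.3 and 80.03 CPM, and Bhlhe40 (DEC1) read 30.5, 28.6, 28.7, 30.4 and 32.7 CPM against 22.2, 21.7, 20.7, 20.04 and 24.9 CPM. The groups of neither gene overlapped, with log2 fold changes of 0.36 and -0.46. The activators were not called, with Clock at -0.068 (SE 0.040) and Arntl at -0.038 (SE 0.057), nor were Per1 at 0.024, Per2 at 0.12, Cry1 at -0.15 and Cry2 at 0.10.

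**Figure D2:**
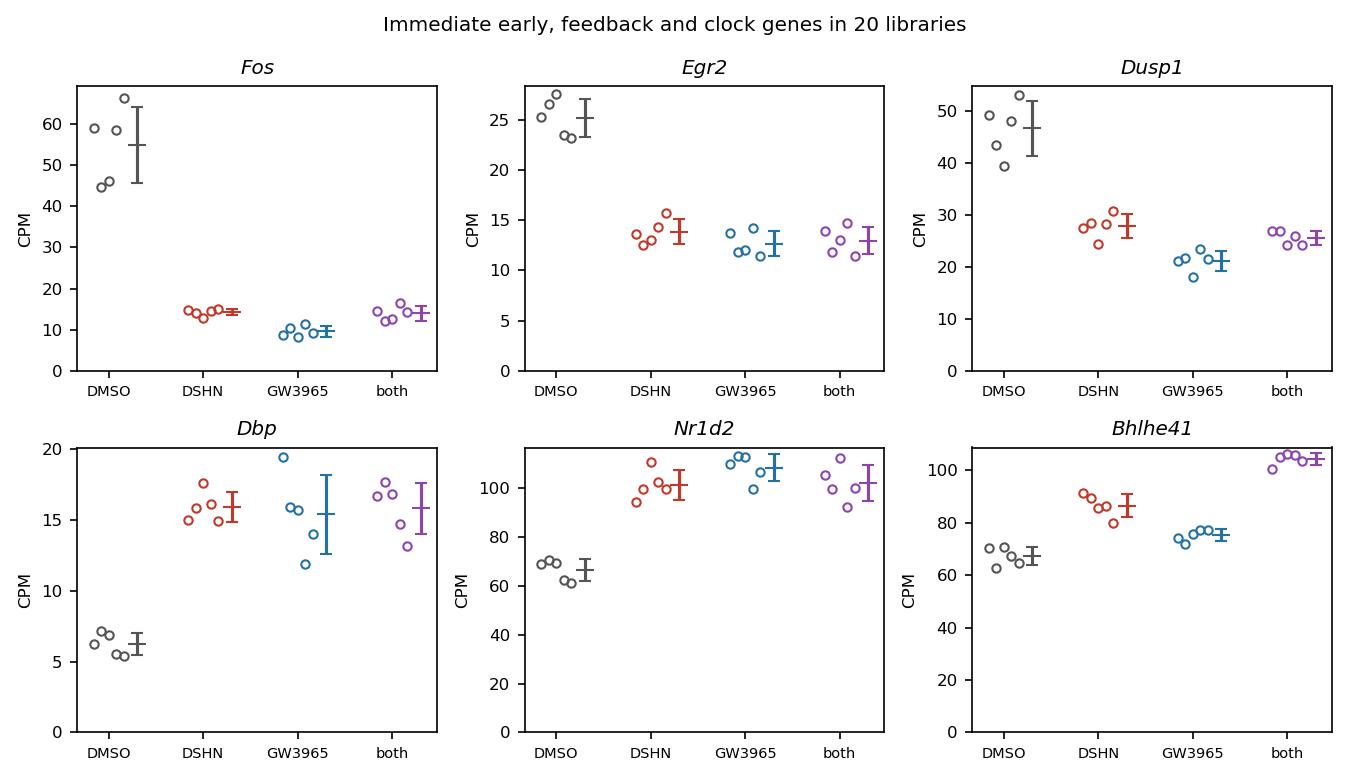
CPM, from 0, for Fos, Egr2, Dusp1, Dbp, Nr1d2 and Bhlhe41 in the 4 treatment groups, with 1 point per library and the mean ± SD of 5 libraries. Fos, Egr2 and Dusp1 are lower and Dbp, Nr1d2 and Bhlhe41 higher in DSHN than in DMSO, with no overlap of the 2 groups.

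The promoters of clock genes that rose are shown for the motifs of the loop. RefSeq windows of 250 bases before to 50 after the start (GRCm38.p6) were available for 15 of the 17 clock genes. The E-box CACGTG stood in 5 of the 15 windows (33.3%) and in 11.7% of the windows of all tested genes, and the D-box TTATGTAA in 1 of the 15 (6.67%) and in 0.619% of all. The Per3 window (chr4:151044616-151044915, minus strand) held 2 D-boxes and the Tef window (chr15:81802423-81802722, plus strand) an E-box, each in capitals below, searched on both strands and printed 5′ to 3′ on the gene's strand.
Per3: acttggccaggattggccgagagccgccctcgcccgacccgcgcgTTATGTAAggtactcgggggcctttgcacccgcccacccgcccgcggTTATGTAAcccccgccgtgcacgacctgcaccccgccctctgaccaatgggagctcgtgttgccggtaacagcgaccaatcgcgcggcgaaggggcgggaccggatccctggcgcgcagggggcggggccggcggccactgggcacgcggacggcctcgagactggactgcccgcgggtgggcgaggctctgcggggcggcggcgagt
Tef: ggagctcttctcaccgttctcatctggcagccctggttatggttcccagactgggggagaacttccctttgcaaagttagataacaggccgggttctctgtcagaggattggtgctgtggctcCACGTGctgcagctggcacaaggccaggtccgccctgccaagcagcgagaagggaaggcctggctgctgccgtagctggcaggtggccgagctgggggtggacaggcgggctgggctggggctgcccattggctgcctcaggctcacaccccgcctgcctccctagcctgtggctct
A match describes the letters in the window and no more.

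Most genes of DNA replication fell. Of 40 tested members 34 fell and 0 rose, at a median of -0.27, against 14.8% lower over all genes tested. In 26 of the 34 the DSHN and DMSO libraries did not overlap, against 60.72% of all called genes. Of 35 genes of mitosis and the G2/M phase 5 fell and 3 rose, at a median of -0.04. The MCM2 to MCM7 subunits, which form the helicase ring loaded onto origins, fell in 6 of 6 cases, by 0.26 to 0.46 on the log2 scale. Mcm6 read 313, 294, 299.9, 335 and 341 CPM in DMSO 1 to 5 and 257, 242, 226, 235 and 234 CPM in DSHN 1 to 5, and Mcm5 172, 162, 168, 185 and 187 CPM against 145, 129.7, 118, 129.6 and 129.9 CPM. Both separated the groups fully, with log2 fold changes of -0.41 (SE 0.062) and -0.42 (SE 0.067). Pcna, the sliding clamp of the polymerases, ran from 309.6 to 357.5 CPM over the DMSO libraries and from 239 to 282.3 CPM over the DSHN libraries and fell by 0.39 on the log2 scale (SE 0.059 and adjusted p = 1.234e-05 by edgeR's test). DMSO 4 and 5 were its highest libraries, and DSHN 1, the highest of its group, stayed below every DMSO library. Ccne2, the cyclin E that drives entry into S phase, read 20.1, 17.3, 20.7, 21.4 and 24.5 CPM against 14.7, 13.4, 12.8, 12.1 and 14.2 CPM. Its log2 fold change of -0.62 was among the larger ones of the list, with Cdc6, an origin licensing factor, at -0.61 and Ccne1 at -0.53. All 5 polymerase and primase subunits on the list fell, as did 4 of 5 genes of nucleotide supply and 4 of 6 of the clamp and its loader. Of the GINS complex and Cdc45, which complete the helicase, 2 of 5 fell, and Gins1, Gins3 and Gins4 were not called. Subgroups within the list were drawn after the values were seen.

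Mitotic genes went both ways, with 5 of 35 lower and 3 higher, shares not above the 14.8% and 14.1% of all genes tested. Ccnb2, a cyclin of the G2/M transition, read 93.3, 101, 102, 96.3 and 96.5 CPM in DMSO and 110.2, 114, 105, 104 and 106 CPM in DSHN and rose by 0.14. Bub1, a spindle checkpoint kinase, read 111, 108, 107, 114 and 119 CPM against 103, 94.7, 95.1, 98.4 and 106 CPM and fell by 0.17. Mki67, the proliferation marker Ki-67, was at -0.048 (SE 0.044) and was not called. Over the 20 other settings 29 to 36 replication genes and 2 to 7 mitotic genes were lower. The mitotic count was 2 without DMSO 1, DSHN 2 or DSHN 3 and 3 without DMSO 2 or 5.

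**Figure D3:**
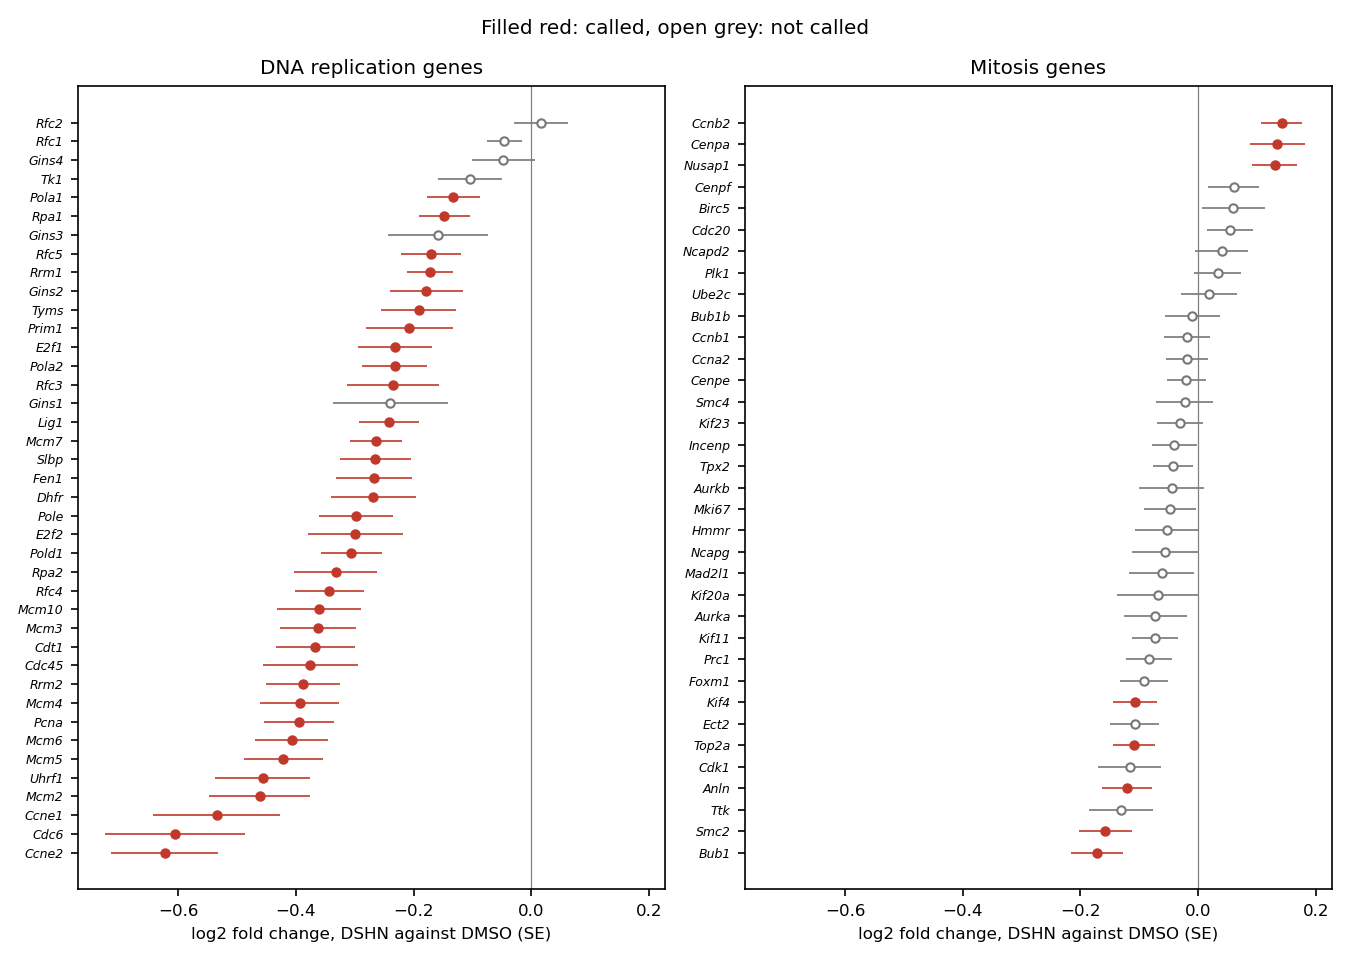
Log2 fold change of DSHN over DMSO with its standard error for the genes of the replication and the mitosis lists, 1 point per gene, called and not called in different colours. The replication genes lie almost wholly below 0, while the mitotic genes sit around 0.

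E2F factors bind the promoters of many replication genes, and the letters of the site were therefore counted, a choice made after the fold changes were seen. The site TTTCGCGC or TTTGGCGC, on either strand, stood in 10 of 32 promoter windows of the replication list (31.2%), in 2 of 28 of the mitosis list (7.14%) and in 1.8% of the windows of all tested genes. The windows of 4 MCM subunits that held it are printed with the site in capitals: Mcm3 (chr1:20820263-20820562, minus strand), Mcm5 (chr8:75109259-75109558, plus), Mcm6 (chr1:128359656-128359955, minus, 2 sites) and Mcm7 (chr5:138171834-138172133, minus), all from RefSeq on GRCm38.p6.
Mcm3: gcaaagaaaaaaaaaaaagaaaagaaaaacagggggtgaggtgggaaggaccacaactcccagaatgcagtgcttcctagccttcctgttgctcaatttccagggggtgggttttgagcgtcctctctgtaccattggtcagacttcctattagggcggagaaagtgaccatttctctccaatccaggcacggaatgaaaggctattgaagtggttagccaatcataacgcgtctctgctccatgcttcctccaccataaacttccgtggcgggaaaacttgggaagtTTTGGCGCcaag
Mcm5: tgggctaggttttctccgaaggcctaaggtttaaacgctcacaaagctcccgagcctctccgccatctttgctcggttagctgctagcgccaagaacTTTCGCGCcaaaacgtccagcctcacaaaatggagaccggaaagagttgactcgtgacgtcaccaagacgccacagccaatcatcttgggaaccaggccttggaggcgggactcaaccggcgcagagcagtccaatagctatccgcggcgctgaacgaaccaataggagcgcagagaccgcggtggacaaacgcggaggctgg
Mcm6: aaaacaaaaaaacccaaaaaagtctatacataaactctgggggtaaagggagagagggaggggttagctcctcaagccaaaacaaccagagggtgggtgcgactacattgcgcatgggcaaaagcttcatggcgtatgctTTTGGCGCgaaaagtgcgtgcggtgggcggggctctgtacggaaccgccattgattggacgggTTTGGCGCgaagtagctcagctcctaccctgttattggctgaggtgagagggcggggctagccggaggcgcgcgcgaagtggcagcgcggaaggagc
Mcm7: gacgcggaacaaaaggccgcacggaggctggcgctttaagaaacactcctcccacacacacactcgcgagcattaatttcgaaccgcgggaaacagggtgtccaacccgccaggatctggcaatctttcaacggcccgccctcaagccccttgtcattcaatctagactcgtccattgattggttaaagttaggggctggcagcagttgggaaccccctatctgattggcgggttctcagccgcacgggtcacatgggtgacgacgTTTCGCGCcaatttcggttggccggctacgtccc
The corresponding log2 fold changes were -0.36, -0.42, -0.41 and -0.26.

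Most lysosomal genes rose, by small amounts. Of 37 tested members 26 rose and 2 fell, at a median of 0.19. The proteases led in abundance: Ctsb, cathepsin B, read 8774, 8916, 8680, 8502 and 8246 CPM in DMSO 1 to 5 and 10105, 10218, 10504, 11051 and 10732 CPM in DSHN 1 to 5. Ctsd, cathepsin D, read 7533, 7526, 7196, 7259 and 7278 CPM against 8794, 9025, 9138, 9737 and 9555 CPM. In both genes the lowest DSHN library was above the highest DMSO library, with log2 fold changes of 0.29 and 0.33. Among enzymes that cut sugars and lipids, 7 of 9 rose, with Hexa, the hexosaminidase A subunit alpha, at 0.38. Of the proteins of the membrane and of sorting 8 of 9 rose, with Lamp1, the major membrane glycoprotein, at 0.35 and Psap, the precursor of the saposins, at 0.34. The proton pump gave 2 of 5 rises, Atp6v1a at 0.33 and Atp6v0d1 at 0.26. Tfec, a member of the MiT family of transcription factors, read 26.6, 32.1, 29.01, 25.3 and 27.3 CPM against 42.6, 40.8, 44.4, 44.8 and 42.4 CPM and rose by 0.62, its relative Tfeb rose by 0.15, and Mitf and Tfe3 were at -0.024 and 0.060 and not called. Cathepsin L went against the rest: Ctsl read 2039, 2016, 2046, 2149 and 2336 CPM in DMSO and 1703, 1627, 1751, 1641 and 1658 CPM in DSHN, a fall of 0.34, and Ctsc, which activates granule proteases, fell by 0.13. With single libraries left out the number of lysosomal genes called higher went down to 18.

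The exporter and the stores of iron were among the genes that rose. Of 21 tested genes of iron handling 8 rose and 1 fell. Slc40a1, ferroportin, the exporter of cellular iron (chromosome 1, 45947230 to 45965690), read 299, 349, 316, 291 and 281 CPM in DMSO and 608, 619, 619, 641 and 627 CPM in DSHN. The groups were far apart and each was tight, at a log2 fold change of 1.02 (SE 0.043, n = 5 and 5, adjusted p = 6.216e-15 by edgeR's quasi-likelihood test). Cp, ceruloplasmin, the ferroxidase that works with ferroportin, was low and rose by 0.83, with the lowest DSHN library at 5.74 CPM just above the highest DMSO library at 5.63 CPM. The ferritin chains that store iron were among the most abundant messages: Fth1 read 9764, 9608, 10228, 10322 and 10096 CPM against 12320, 12189, 12803, 11739 and 11619 CPM, and Ftl1 8529, 8835, 9368, 9378 and 9019 CPM against 11397, 11558, 10852, 10318 and 10123 CPM. Both rose, by 0.28 and 0.27. Ncoa4, the receptor that delivers ferritin to lysosomes, read 66.5, 77.4, 66.5, 57.7 and 52.1 CPM against 78.4, 89.04, 95.7, 108 and 107 CPM, with DMSO 4 and 5 lowest and DSHN 4 and 5 highest. The haem carriers Slc48a1 and Flvcr1 rose by 0.26 and 0.17. Tfrc, the transferrin receptor, was at 0.028 and Hmox1, which opens the haem ring, at -0.040, both not called, and Steap3, the endosomal ferrireductase, fell by 0.20.

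Of 21 tested NRF2 targets, which include enzymes of glutathione and peroxide metabolism, 17 rose and 0 fell, at a median of 0.28. Gsta3, a glutathione S-transferase (chromosome 1, 21310789 to 21335799), read 5.36, 4.78, 5.22, 4.54 and 5.13 CPM in DMSO and 8.63, 11.2, 9.46, 10.5 and 11.03 CPM in DSHN. Mgst1, a microsomal glutathione S-transferase, read 58.9, 64.1, 64.02, 55.6 and 55.2 CPM against 108, 113, 121, 114 and 106 CPM. No library of one group reached the other, at log2 fold changes of 1.01 and 0.92, and Cat, catalase, rose by 0.77. The promoter windows of Gsta3 (chr1:21240335-21240634, plus strand) and Mgst1 (chr6:138140277-138140576, plus strand) held the core of the antioxidant response element, TGACNNNGC, in capitals below. Over all tested genes 17% of windows held these letters, and over the list of NRF2 targets 8 of 18 did (44.4%). Both strands were searched, and a core can overlap an AP-1 site.
Gsta3: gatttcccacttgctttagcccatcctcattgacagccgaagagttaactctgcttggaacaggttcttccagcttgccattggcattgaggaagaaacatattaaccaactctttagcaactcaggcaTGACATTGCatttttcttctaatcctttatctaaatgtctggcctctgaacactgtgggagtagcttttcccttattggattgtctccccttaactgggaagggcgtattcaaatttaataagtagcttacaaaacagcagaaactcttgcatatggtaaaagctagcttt
Mgst1: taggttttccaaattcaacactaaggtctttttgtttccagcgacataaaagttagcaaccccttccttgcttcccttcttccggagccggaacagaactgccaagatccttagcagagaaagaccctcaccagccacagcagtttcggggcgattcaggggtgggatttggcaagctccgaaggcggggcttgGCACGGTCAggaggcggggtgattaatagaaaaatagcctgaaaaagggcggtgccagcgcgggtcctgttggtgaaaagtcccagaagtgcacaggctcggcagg
Both sequences are from RefSeq on GRCm38.p6.

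Surface receptors of phagocytes split by family. All 6 called members of the 8 tested Ms4a tetraspan genes rose, with Ms4a7 at 275, 296, 299, 251.0 and 251.7 CPM in DMSO and 360.2, 347, 404, 380 and 374 CPM in DSHN (log2 fold change 0.44). The near copies Ms4a6b, Ms4a6c and Ms4a6d rose by 0.31, 0.37 and 0.26, and reads could be split among them, so these 3 are uncertain one by one. Of 8 Fc receptor genes 6 rose and 1 fell. Fcgr2b, the inhibitory receptor for IgG (chromosome 1, 170788127 to 170803691), read 40.3, 44.4, 43.1, 36.04 and 35.8 CPM against 70.4, 70.2, 82.5, 80.4 and 75.5 CPM, a clear gap between the groups and a log2 fold change of 0.92 (SE 0.083). Fcgr3, an activating receptor of low affinity and close relative of Fcgr2b in its outer part, rose by 0.48, and Fcgrt, the neonatal Fc receptor that recycles IgG, by 0.41. Fcgr1, the activating receptor of high affinity, went down: it read 146, 123.3, 138, 155 and 164 CPM in DMSO and 102, 101, 109.6, 98.7 and 103 CPM in DSHN, with no overlap and a log2 fold change of -0.50. Genes of antigen presentation gave 7 rises and 0 falls of 19 tested. H2-Aa, an MHC class II chain, was low at 5.00, 5.26, 5.72, 4.02 and 4.74 CPM against 6.35, 7.47, 9.55, 7.89 and 7.43 CPM, and H2-D1, of class I, rose by 0.25. MHC genes are near copies and share this doubt.

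Receptors for dying cells and modified lipids were mixed. Of 24 efferocytosis genes, which take up dying cells, 6 rose and 9 fell. The rises included a ligand and its receptor: Gas6, which bridges phosphatidylserine to TAM kinases, read 259, 277, 276, 272 and 261 CPM in DMSO and 468, 479, 475, 457 and 437 CPM in DSHN, and Mertk, a TAM kinase, 121, 133, 118, 108 and 99.3 CPM against 139.8, 151, 162, 175 and 170.4 CPM. Both sets of libraries were separate, with log2 fold changes of 0.78 and 0.46, while the TAM relative Axl fell by 0.14. The scavenger receptors Marco and Stab1 rose by 0.90 and 0.45, whereas Msr1 and Cd36 fell by 0.32 and 0.25. Of 16 tested markers of alternative activation 4 rose and 5 fell, at a median of -0.064. Mrc1, the mannose receptor, rose by 0.47 and Clec10a, a lectin for galactose, by 0.72, while Arg1, which splits arginine and lay near 1 CPM, fell by 1.63, Folr2, a folate receptor, by 0.51 and Clec7a, the receptor for beta-glucan, by 0.31. Lpl, lipoprotein lipase (chromosome 8, 69333207 to 69359584), had the largest fall in CPM, from 5091, 5326, 5565, 5317 and 5409 CPM to 2992, 2633, 2717, 2631 and 2714 CPM. DSHN 1 was the highest of its group, yet far below DMSO. Plin2, which coats lipid droplets, fell by 0.27, and Soat1, which esterifies cholesterol, rose by 0.31.

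Chemokine receptors fell in 7 of 18 tested genes and rose in 5. Cx3cr1, the fractalkine receptor, read 371, 397, 391, 352 and 362 CPM in DMSO 1 to 5 and 204, 195, 173, 172 and 181 CPM in DSHN 1 to 5. The groups were narrow and widely separated, at a log2 fold change of -1.02. Ccr3, the eotaxin receptor, read 30.1, 27.7, 27.96, 27.3 and 30.5 CPM against 13.3, 13.3, 12.6, 11.9 and 15.8 CPM (log2 fold change -1.10), and Ccr1 fell by 0.61. Markers of mast cells, basophils and eosinophils, of which Siglecf, Gata2 and Mcpt8 fell among 4 tested, summed to 4.78 to 7.42 CPM in DMSO and 3.13 to 3.74 CPM in DSHN, and their part in these changes was not tested. The anaphylatoxin receptors C5ar1 and C3ar1 fell by 0.48 and 0.33. Cxcr4, the receptor of Cxcl12, rose by 0.55, and P2ry12, which senses ADP, by 0.45. Cx3cr1, Ccr2 and Nr4a1 also serve as monocyte markers: summed over the monocyte list, of which Cx3cr1 was the most abundant and 8 members were tested, the level was 450.4 to 512.1 CPM in DMSO and 270.3 to 295.8 CPM in DSHN, with 4 of the 8 lower and 2 higher, and the part of monocytes in these changes was not tested.

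Of 21 tested chemokine ligands 7 fell and 3 rose, where 14.8% of all genes tested fell and 14.1% rose. The rises were thus near the share over all genes. The neighbours Ccl2, Ccl7 and Ccl12, which bring in monocytes, had log2 fold changes of -1.57, -1.87 and -1.47. Ccl2 (chromosome 11, 81926403 to 81928278) read 89.9, 42.7, 54.1, 93.9 and 118 CPM in DMSO and 32.9, 25.6, 21.5, 24.1 and 28.99 CPM in DSHN. The DMSO cultures varied widely, with DMSO 2 and 3 well below the other 3, but the lowest was still above the highest DSHN library. Cxcl2, which brings in neutrophils, fell by 0.89. Cxcl12, the stromal and macrophage chemokine, rose by 0.95 (25.99, 29.9, 26.1, 21.4 and 24.9 CPM against 41.2, 42.7, 59.9, 60.1 and 44.7 CPM), with DSHN 3 and 4 the highest. Ccl6 rose by 0.36. Cytokine and NF-kappaB response genes gave 6 falls and 4 rises of 23, with the rises again not far from that share. Tnf, at 18.8, 10.7, 12.5, 15.96 and 21.2 CPM against 8.42, 6.37, 7.04, 8.12 and 8.93 CPM, fell by 1.02, and Csf1, the growth factor M-CSF itself, read 179, 156, 141, 157 and 174 CPM against 106, 113, 105, 124 and 119 CPM and fell by 0.51. Tnfaip2 went up without overlap, 180.4, 195, 170.4, 141 and 132 CPM against 239, 258, 264, 292 and 282 CPM, while Tnfaip3, the brake on NF-kappaB also called A20, fell by 0.61. Nfkbia, another early target of NF-kappaB, was at -0.042 and not called.

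The plasminogen system, by which cells degrade fibrin and matrix, had falls at an activator and its receptor, beside the inhibitor Serpinb2 given above. Of 28 tested genes of pericellular proteolysis and coagulation 13 fell and 6 rose, at a median of -0.14. Plau, the urokinase activator (chromosome 14, 20886730 to 20893456), read 292, 217, 246, 313 and 365 CPM in DMSO and 139.5, 113, 107, 113 and 121 CPM in DSHN, which is a fall of 1.27 on the log2 scale (SE 0.12 and adjusted p = 1.459e-08 by edgeR's test). Plaur, its receptor, read 42.8, 34.3, 40.3, 48.4 and 48.9 CPM against 29.8, 25.9, 23.6, 22.95 and 26.4 CPM and fell by 0.73. Neither gene had overlapping groups, and the tissue activator Plat fell by 0.68. Of the metalloproteinases, Mmp12, the macrophage elastase, read 1376, 1589, 1472, 1327 and 1445 CPM against 954, 867, 901, 1022 and 978 CPM, a fall of 0.61, and Mmp13 fell by 0.62, against the rise of Mmp8 given above. The inhibitors Timp1 and Timp3 fell by 0.75 and 0.48, while Timp2 rose by 0.19.

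Among eicosanoid genes the largest change was in 1 enzyme. Ptgs2, the inducible cyclooxygenase, read 20.5, 15.8, 16.2, 17.9 and 20.8 CPM in DMSO and 6.76, 6.00, 5.16, 7.39 and 7.04 CPM in DSHN, at a log2 fold change of -1.50, and Pla2g4a, which frees its substrate arachidonate, fell by 0.54. The constitutive Ptgs1 was at 0.073 and not called. The prostaglandin E2 receptors diverged, with Ptger4 at -0.43 and Ptger2 at 0.49, both called. Pla2g7, which inactivates platelet-activating factor, read 195, 199, 189.9, 177 and 172 CPM against 285, 278, 316, 312 and 308 CPM and rose by 0.68.

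Among genes of adhesion and the cytoskeleton more fell than rose. Of 23 integrin and adhesion genes 12 fell, and of 28 actin and serum response factor genes 18 fell, at medians of -0.10 and -0.17. In the first list 1 gene, Cd81, rose, a call that was lost under most single-library omissions, and in the second 1 gene rose. Itgax, integrin alpha X, read 81.9, 97.6, 84.9, 69.3 and 73 CPM in DMSO and 40.8, 42.1, 38.9, 53.6 and 51.04 CPM in DSHN, and Itga5, a fibronectin receptor subunit, 274, 247, 228, 256 and 260.4 CPM against 167, 172, 162, 184 and 181 CPM. Neither overlapped, at log2 fold changes of -0.85 and -0.55. Actb, cytoplasmic actin, was lower by 0.13 with overlapping libraries. The filament crosslinker Flna fell by 0.28, the nuclear lamin Lmna by 0.29 and Ankrd1, a target of YAP, by 0.74. A pair of secreted or shed products of macrophages also fell: Spp1, osteopontin, read 1317, 1234, 1333, 1454 and 1533 CPM against 762, 709.7, 701, 672 and 685 CPM, and Adam8, a sheddase, 1404, 1234, 1253, 1419 and 1597 CPM against 862, 781, 748, 797 and 852 CPM. All DSHN libraries of both genes were below all DMSO libraries.

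Several programmes gave few calls or counts that moved with the settings. Of 30 interferon-stimulated genes 1 fell and 0 rose, and over the other settings the number lower ran from 0 to 8 (8 without DMSO 2, 5 without DSHN 3, and 0 without DMSO 1, 3 or 5 or DSHN 1, 2 or 5). Of 24 sterol synthesis genes 4 fell and 1 rose, where 14.8% of all genes tested fell and 14.1% rose. Proteasome subunits fell in 6 of 38, which ranged from 1 to 10 over the settings (3 without DMSO 1 and 2 without DMSO 5). Genes for cytosolic ribosomal proteins rose in 20 of 82 and of the respiratory chain in 19 of 80, at medians of 0.08 and 0.09. After a correction for exon length these rises numbered 10 and 12, and with libraries scaled by total counts the ribosomal count was 10, and leaving out DMSO 1, DMSO 5, DSHN 1, DSHN 2 or DSHN 3 gave 7 to 10.

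The same dose of DSHN was also given on top of GW3965, in 10 libraries that share no sample with the comparison above. The 5 libraries of the combination stood apart in their relation of counts to exon length (slopes of -0.124 to -0.0943, against 0.0057 to 0.063 over the 10 libraries of DSHN and DMSO), so counts are given also after a length correction. Mitochondrial tRNA and rRNA genes took 0.2013% to 0.2464% of their counts. The ranges were 0.1291% to 0.1468% with GW3965 alone, 0.1143% to 0.1359% in DMSO and 0.1189% to 0.1518% in DSHN. Whether these differences came from the treatment or from the libraries was not tested. In cells with GW3965, libraries with and without DSHN differed in 57.8% of the genes tested, 28.3% higher and 29.5% lower with DSHN (47.3% after length correction, 23.8% and 23.5%). These were 3760 and 3928 genes, and 4637 and 3295 with libraries scaled by total counts. Of the 15 largest rises named above, 5 were higher and 4 lower there, and of the 15 largest falls 2 were higher and 4 lower. After length correction the numbers were 4 and 3, and 2 and 2, in the same order. The change of the DSHN effect by GW3965 was itself called for 50.2% of the genes tested (3154 more positive and 3527 more negative with GW3965; 4069 and 2853 with libraries scaled by total counts; 44.2% called after length correction). It was called in 14 of the 15 largest rises, all toward a smaller or opposite effect, and in 14 of the 15 largest falls, all toward a less negative effect. Because this test holds the DSHN and DMSO libraries by which these 30 genes were picked, its direction is partly set by that choice.

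**Figure D4:**
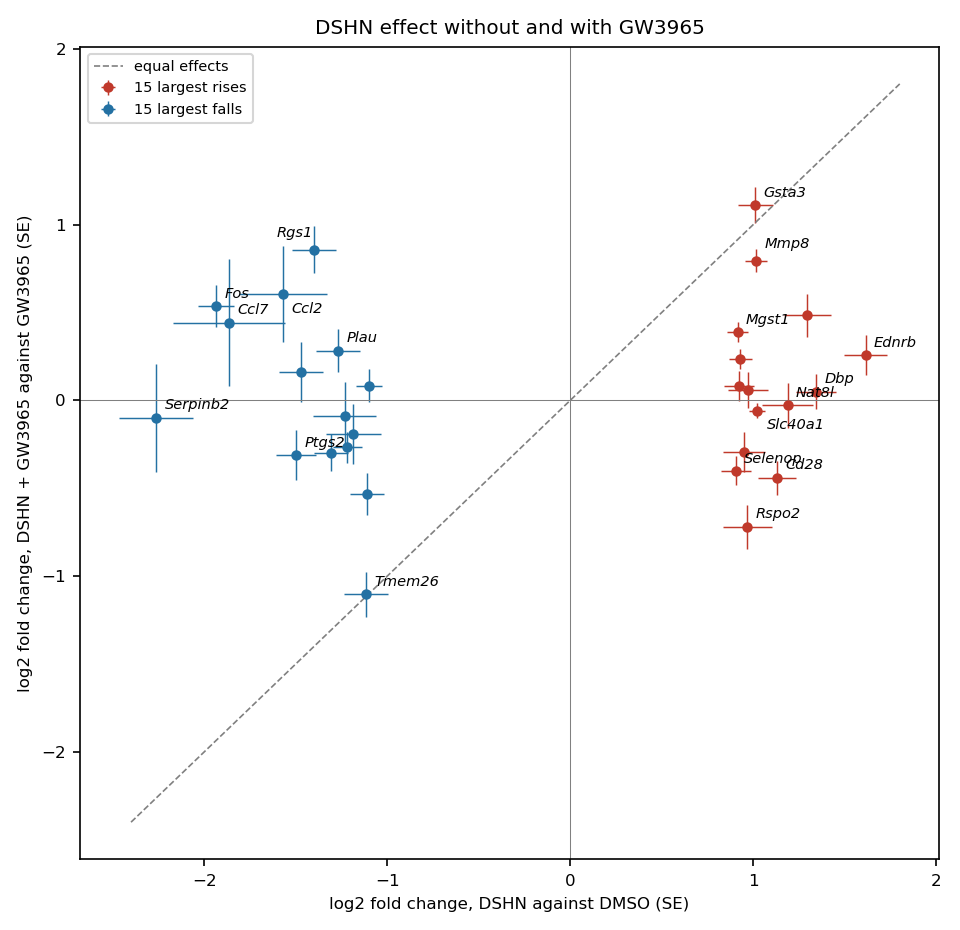
Log2 fold change by DSHN without GW3965 (DSHN over DMSO) on the horizontal axis against that with GW3965 (both compounds over GW3965 alone) on the vertical axis, for the 15 largest rises and 15 largest falls. Many genes lie near the horizontal line at 0, and Gsta3, Mmp8 and Tmem26 lie near the diagonal of equal effects.

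Named genes behaved in several ways in the cells with GW3965. Some changed little there: Slc40a1 had a log2 fold change of -0.058 (difference of effects -1.08, adjusted p = 1.949e-12 by edgeR's quasi-likelihood test), Dbp 0.049 and Fcgr2b 0.080. Some were called the opposite way: Fos was at 0.54 (difference 2.47, adjusted p = 1.093e-11), Rgs1 at 0.86, Rspo2 at -0.72 and Cd28 at -0.44. These effects start from GW3965 alone, not DMSO. From that start DSHN alone was at 0.57 for Fos, 0.69 for Rgs1, -0.21 for Slc40a1, 0.055 for Dbp and -0.56 for Cd28. Fos and Rgs1 were thus lower, and Slc40a1 and Cd28 higher, with GW3965 alone than with DSHN alone. Fcgr2b differed, with DSHN alone higher by 0.62. Mean CPM follows in the order DMSO, DSHN alone, GW3965 alone and both compounds. Fos was at 54.9, 14.3, 9.62 and 14.01, and Rgs1 at 86.6, 32.6, 20.2 and 36.97. Cd28 was at 30.7, 67.4, 99.5 and 73.1, and Rspo2 at 9.30, 18.4, 24.45 and 14.8. An opposite sign was thus not a return to the DMSO level in these genes, and its cause was not tested. Other genes were called the same way with a smaller effect, such as Mgst1 at 0.39, Ms4a4a at 0.48 and Pcdh7 at -0.27. After length correction Mgst1 was still called, at 0.15, while Ms4a4a at 0.25 and Pcdh7 at 0.0057 were not. A few had effects of like size with and without GW3965, among them Gsta3 at 1.11 (difference 0.10, SE 0.14, adjusted p = 0.590) and Tmem26 at -1.10 (difference 0.012, SE 0.18, adjusted p = 0.961). Mmp8 rose by 0.79 with GW3965, slightly less than without. Csf1 fell by 0.50 and Bhlhe41 rose by 0.47, against -0.51 and 0.36 without it, and the difference was not called for either (0.0064, SE 0.076, adjusted p = 0.953, and 0.10, SE 0.055, adjusted p = 0.119). After length correction the difference was called for Bhlhe41 (0.26, adjusted p = 0.0014 by edgeR's test) and not for Csf1 (0.091). Of the 40 replication genes 24 were higher and 4 lower when DSHN was added to GW3965 (20 and 3 after length correction). From the same start 33 of the 40 were higher and 0 lower with DSHN alone, at a median of 0.30. Replication genes were thus mostly lower with GW3965 alone than with DSHN alone. Against GW3965 alone, DSHN alone differed in 17.1% of the genes tested (8.82% higher and 8.3% lower, or 1174 and 1104 genes; 1641 and 768 with libraries scaled by total counts). Of the 15 largest rises 5 were higher and 4 lower than with GW3965, and of the 15 largest falls 5 were higher and 1 lower. Dbp differed by 0.055 (SE 0.097, adjusted p = 0.776), while Mmp8 and Gsta3 were higher with DSHN, by 1.26 and 1.33.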

How the data were processed

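Stranded mRNA libraries of 20 cultures, 5 per group, were sequenced. Per the file headers, the authors assigned aligned reads to exons of GRCm39 RefSeq genes with featureCounts 2.0.0, and the deposited values are raw counts per gene. STAR is named in the submitters' processing notes. The kit marks strand, but the recorded command sets no strand option, so a gene and an overlapping or antisense partner cannot be told apart. Of 46318 genes, 44749 had a symbol, and the other 1569 held 0.474% of counts.

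Counts were filtered and TMM-scaled, and all 4 groups were fitted together with edgeR 4.0.16 (R 4.3.3) by glmQLFit and glmQLFTest, 2-sided, with Benjamini-Hochberg adjustment over 13307 genes. Called means an adjusted p below 0.05. Single values of libraries were compared with an exact permutation test over samples. Alternatives were DESeq2 1.42.0, limma 3.58.1 (voom), other scalings and filters, a spline correction for exon length, a replicate block and each library left out. In simulated counts with 50 genes changed at each size, 35, 43, 50 and 50 were recovered at 1.25-, 1.5-, 2- and 4-fold, with 9 unchanged genes of 13178 called. Gene symbols and promoter windows came from RefSeq tables on GRCm38.p6, and no position was carried between builds.

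By rule, the text named the 15 largest rises and falls among called genes of at least 5 CPM whose libraries did not overlap and that have a full symbol, the 5 largest rises and falls in CPM, up to 4 members of each list by smallest adjusted p, and Nr0b2, Nr1h2 and Nr1h3. Other members of the 38 pathway lists named in the text were chosen after their values were seen. The members and lists were chosen with earlier results of these data known. Same-numbered DMSO and DSHN libraries did not deviate together (correlations of -0.17 to 0.15, 1 of 5 highest with its own number), so the numbers were not taken as pairs. A few genes are not reported here.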

Additional observations from a re-analysis of the deposited data

Results flagged for a closer look

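In 12 of 360 groups of 5 libraries tested (3.33%; chance gives about 1 in 20), the CPM of 1 library stood apart from the other 4. DSHN 1 was high for Rgs1 (39.9, others 29.7 to 31.9), Efr3b (12.2, others 8.26 to 9.10), Lpl (2992, others 2631 to 2717) and Hsp90aa1, a chaperone (319.4, others 296.3 to 299.9), and low for Rxra, the partner of many nuclear receptors (124.8, others 131.9 to 134.5). DSHN 3 was high for Ccl6 (392.6, others 343.1 to 355.5) and Ms4a6c (290.1, others 243.3 to 254.0), DSHN 4 for Herpud1 (48.8, others 44.8 to 45.7), and DSHN 2 was low for Psmc2 (117.4, others 120.4 to 121.5). Among DMSO libraries, DMSO 1 was high for Sqle (61.5, others 57.0 to 58.1), DMSO 3 was low for Tiparp (37.7, others 42.0 to 43.8), and DMSO 5 was low for Rxra (97.2, others 103.8 to 106.3).

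The effect of DSHN differed with and without GW3965 for 6681 genes by the interaction test of edgeR, and for 28 of the 30 largest rises and falls. All 28 were called with the same sign after the exon length correction, and the test shares the libraries by which these genes were picked. The effect with GW3965 was measured from GW3965 alone, not from DMSO. It also rests on the combination libraries, which stood apart in exon length slope and mitochondrial RNA, as given above. The difference of log2 fold changes (with minus without GW3965) was -1.36 for Ednrb, -1.29 for Dbp, -0.81 for Ms4a4a, -1.22 for Nat8l, -1.57 for Cd28, -1.08 for Slc40a1, -0.22 for Mmp8, -0.91 for Ptx3, -1.69 for Rspo2, -1.24 for Cxcl12, -0.69 for Mmp27, -0.84 for Fcgr2b, -0.53 for Mgst1 and -1.31 for Selenop. Among genes that fell with DSHN alone it was 2.16 for Serpinb2, 2.47 for Fos, 2.31 for Ccl7, 2.18 for Ccl2, 1.19 for Ptgs2, 1.63 for Nptx1, 2.26 for Rgs1, 1.01 for Efr3b, 1.55 for Plau, 1.14 for Sncaip, 0.95 for Pcdh7, 0.99 for Zfp618, 0.58 for Dhrs9 and 1.18 for Ccr3.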

How the results depend on the processing

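The number of genes called between DSHN and DMSO was 3852 and ran from 3131 to 3872 as each library was left out. A test for a change beyond 1.5-fold called 61 genes (21 higher and 40 lower). With the replicate block it was 3988, and 4102 with the replicate block and exon length correction together, the latter chosen after seeing the data. With single libraries left out, the counts were 7214 to 7702 for both compounds against GW3965 (7688 with all), 6334 to 6873 for the change of the DSHN effect by GW3965 (6681) and 1878 to 2536 for DSHN against GW3965 (2278). The replicate block gave 7817, 6771 and 2445 in the same order. Of 174 named genes called, 166 stayed called in all 20 alternatives and none reversed. The exceptions, with their highest adjusted p, were Atp5j2 (0.0683), Ifit1 (0.109), Psmc2 (0.131), Psmd3 (0.0637), Psmd7 (0.122), Rpl10 (0.0654), Rplp1 (0.0749) and Tiparp (0.161). List counts moved by more than 1.5 times in 111 recomputations and by less in the other 2049. The share of counts on the 20 most abundant genes was 11.2% ± 0.22 in DMSO and 12.05% ± 0.24 in DSHN (SD, n = 5 each, exact permutation test, 2-sided p = 0.00794, the smallest possible, adjusted p = 0.0317 over 4 measures), and its part in the calls was not tested. Genes with as few counts as Nr0b2 were beyond what this depth resolves.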

Other observations

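Chaperone, glycolytic and splicing genes were not described above. Of 22 heat shock genes 13 fell and 0 rose, at a median of -0.17, with the small chaperone Hspb1 at -0.47 and the cytosolic Hsp90aa1 at -0.28, while its constitutive relative Hsp90ab1 was at -0.026 and not called. Of 30 genes of glycolysis and the hypoxia response 12 fell and 4 rose (2 without DMSO 1, DMSO 3, DSHN 2 or DSHN 3). Over all genes tested 14.8% fell and 14.1% rose. The lactate exporter Slc16a3 was at -0.44 and the phosphofructokinase Pfkp at -0.27. Of 25 splicing genes 9 fell and 0 rose.

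Of 15 tested genes of metallothioneins and zinc transport 2 rose (4 after exon length correction) and 4 fell, at a median of -0.0088. The shares over all genes tested were 14.1% higher and 14.8% lower. The metallothioneins Mt1 and Mt2, which bind zinc and copper, rose by 0.52 each on the log2 scale, and the zinc importers Slc39a14, Slc39a10 and Slc39a6 fell by 0.58, 0.43 and 0.26 and the zinc exporter Slc30a4 by 0.12, while Mtf1, the zinc-sensing factor that drives metallothioneins, was at 0.0018 and not called. Of 26 genes of the p53 response and apoptosis 9 rose and 8 fell (5 without DSHN 4). Fas, a death receptor, rose by 0.54, and the survival factor Bcl2l1 and the cell cycle inhibitor Cdkn1a fell by 0.38 and 0.25. Of 31 nuclear receptor and cofactor genes 11 rose and 3 fell, with Esr1, the oestrogen receptor alpha, at 0.51, and the liver X receptors in opposite directions, Nr1h2 at 0.14 and Nr1h3 at -0.25.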
